A study of Mus musculus with 6 samples.

Results

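The regions described here are Dppa2 peaks centred downstream of an annotated start site of a protein-coding gene. They are called peaks centred inside the gene, although at 4 of them the midpoint was outside the annotated gene. A peak was taken with its midpoint at least 350 bp downstream of the nearest transcription start site (TSS), along the strand of the gene. That TSS had to belong to a protein-coding gene and to lie within 1000 bp of the midpoint. No other protein-coding gene could have a TSS within that distance. In addition, the observed over expected ratio of CpG dinucleotides (CpG o/e) in the 1000 bp around the midpoint had to be from 0.4 to below 0.9. Of 3336 peaks in the list, 338 met all conditions, and each belonged to a different gene. These were 19.1% of the 1766 peaks that met every condition other than position, and their genes were 1.51% of the 22367 protein-coding genes on the same chromosomes. The members were chosen by the measured position of the peak and by the CpG o/e at its midpoint, so these values, and the score and width from the same ChIP, are given as a description. Without the CpG condition there would have been 507 such peaks, with 72 below and 97 above the range.

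The study performed ChIP-seq with an antibody against the V5 epitope on CGR8 cells, a mouse embryonic stem cell (ESC) line grown without feeders in medium with LIF and serum. In the V5-Dppa2 sample, the cells were a puromycin-selected stable clone made by lipofection of a pPyCAG-driven vector for Dppa2 with an N-terminal V5 tag, and they carried this transgene in addition to their own Dppa2. The control was the parental CGR8 line without a tag. Each condition is represented by 1 library, and the control entered only through the peak calling of the authors. The 4 histone modification samples of the series were not analysed here. No replicate error can be given, the sequencing depth is unknown, and a peak list does not allow the identity of the cells to be checked. Intervals given below are exact 95% intervals over peaks. They cover counting error only, as peaks are not replicates.

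Dppa2 (developmental pluripotency associated protein 2) is a nuclear protein of pluripotent cells and the germ line that contains a SAP domain, a motif found in proteins that bind DNA and chromatin. In mammals the promoters of many genes lie in CpG islands, stretches of DNA in which CpG dinucleotides have not been lost during evolution. Such an island often continues past the TSS into exon 1 and the start of intron 1, which are transcribed.

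Windows of 200 bp at the midpoint of 6 of these peaks show the reference sequence in the middle of the called interval, which need not be where the binding was strongest. They belong to the 6 highest-scoring members whose window held no untranslated region of any annotated transcript and no repeated 36-mer. They were read from the mm9 reference genome and are printed along the strand of the gene, in lower case with each CpG in capitals. The windows are chr10:97156253-97156452 for 4921510H08Rik, chr11:102008024-102008223 for Nags, chr11:87430924-87431123 for Hsf5 and chr12:27154370-27154569 for Cmpk2, all on the plus strand, chr19:7008363-7008562 on the minus strand for Kcnk4, and chr9:107956266-107956465 on the plus strand for Amigo3.
4921510H08Rik: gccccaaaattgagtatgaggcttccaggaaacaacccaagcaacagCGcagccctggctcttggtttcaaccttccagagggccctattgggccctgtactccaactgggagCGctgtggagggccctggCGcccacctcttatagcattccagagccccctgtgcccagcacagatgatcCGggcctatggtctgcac
Nags: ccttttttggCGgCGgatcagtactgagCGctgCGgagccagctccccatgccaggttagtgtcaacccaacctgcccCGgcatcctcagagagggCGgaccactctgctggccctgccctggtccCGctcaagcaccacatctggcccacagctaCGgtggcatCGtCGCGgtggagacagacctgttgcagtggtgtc
Hsf5: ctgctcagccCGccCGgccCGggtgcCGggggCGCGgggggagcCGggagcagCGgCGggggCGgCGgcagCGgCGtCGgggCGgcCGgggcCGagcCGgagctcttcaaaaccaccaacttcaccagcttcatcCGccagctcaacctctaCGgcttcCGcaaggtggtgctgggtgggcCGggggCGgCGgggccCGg
Cmpk2: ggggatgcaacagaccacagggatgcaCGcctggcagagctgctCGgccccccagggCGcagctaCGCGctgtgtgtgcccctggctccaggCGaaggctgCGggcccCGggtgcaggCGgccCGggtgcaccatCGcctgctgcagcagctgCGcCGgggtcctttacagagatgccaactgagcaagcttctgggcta
Kcnk4: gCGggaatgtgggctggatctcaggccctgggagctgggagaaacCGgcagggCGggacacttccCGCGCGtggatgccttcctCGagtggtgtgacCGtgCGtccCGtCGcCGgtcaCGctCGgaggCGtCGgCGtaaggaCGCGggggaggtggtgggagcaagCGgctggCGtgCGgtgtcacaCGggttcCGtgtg
Amigo3: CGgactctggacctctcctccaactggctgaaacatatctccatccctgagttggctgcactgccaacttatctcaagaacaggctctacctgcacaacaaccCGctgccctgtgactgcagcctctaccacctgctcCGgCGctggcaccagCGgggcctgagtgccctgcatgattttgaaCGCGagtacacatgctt
The Hsf5 window, in exon 1 of a gene of the heat shock factor family, held 25 CpGs in 200 bp. Nearly as many, 24, were present in intron 1 of Kcnk4, which encodes a potassium channel. In contrast, the coding windows of 4921510H08Rik and Amigo3 held only 4 and 7 CpGs. The windows of Cmpk2, a mitochondrial nucleotide kinase gene, and Nags, which encodes the enzyme that makes the activator of the urea cycle, were in between with 13 and 11.

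The midpoints of the 338 peaks were between 350 and 968 bp downstream of the TSS, and the rule limited them to 350 to 1000 bp. Their median was 489 bp (95% interval 471 to 516 bp), with quartiles at 408 and 609 bp. The TSS was the nearest one of any annotated transcript. In 75 members the gene had another annotated TSS further upstream, and in 20 the transcript at the TSS was not protein-coding. Most of the 338 peaks still reached back over the nearest TSS. In 310 peaks (91.7%, interval 88.2 to 94.4%) the TSS was inside the peak, whereas 28 peaks began downstream of it. The upstream edge was at a median of -282 bp and the downstream edge at 1328 bp. A median of 81.5% of the bases of a peak was downstream of the TSS. At 1000 bp into the gene, 90.2% of the peaks still covered the position, and at 500 bp upstream of the TSS 16.6% did. For comparison, 1381 of the 1766 eligible peaks had their midpoint less than 350 bp from the TSS and are called TSS-centred here, and 47 were centred at least 350 bp upstream. Of the TSS-centred peaks, 16.4% covered the position 1000 bp downstream and 63.1% the position 500 bp upstream. The peaks inside the gene had a median width of 1565.5 bp (interval 1508 to 1620 bp), and the TSS-centred peaks one of 1341 bp (interval 1319 to 1367 bp). With 177 members below 500 bp, 110 from 500 to below 700 bp and 51 beyond, most were in the part of the range nearest to the threshold.

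**Figure D1:**
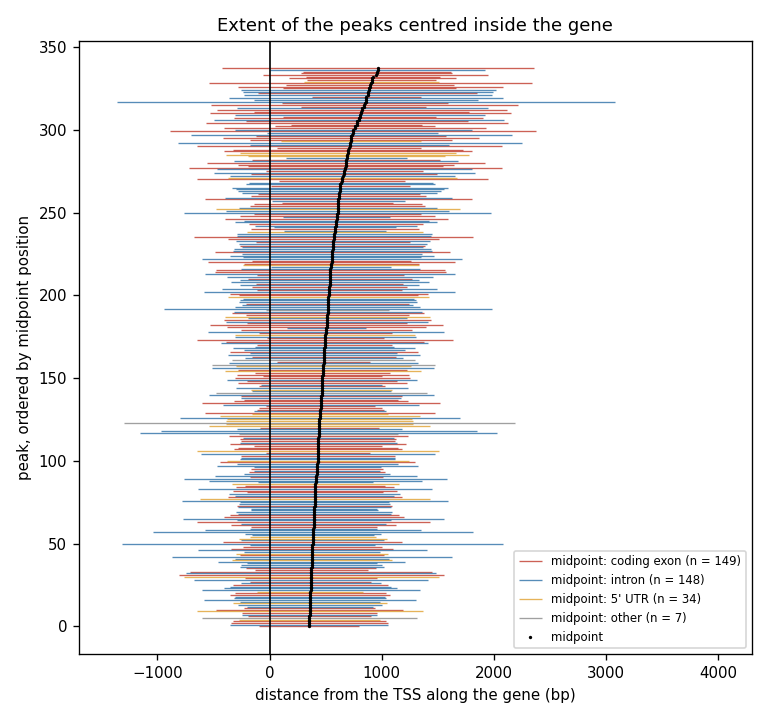
Each horizontal line is 1 of the 338 peaks, from its upstream to its downstream edge in bp from the TSS along the gene, ordered by the position of the midpoint (black points) and coloured by the annotation at the midpoint. The vertical line is the TSS, which lies inside 310 of the peaks, including most of those with the midpoint far into the gene.

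By the GENCODE M1 annotation, 149 midpoints (44.1%, interval 38.7 to 49.6%) fell in coding exons and 148 (43.8%, interval 38.4 to 49.3%) in introns. A further 34 fell in 5′ UTRs. Of the TSS-centred peaks, 26.1% had the midpoint in a coding exon, 23.6% in an intron and 30.9% in a 5′ UTR. Such a shift follows in part from the position itself. Within the transcript that starts at the TSS, 162 midpoints were in exon 1, 145 in intron 1, 18 in exon 2, 7 in intron 2 and 2 in exon 3. The annotated translation start was inside the peak in 259 of 322 members with one (80.4%, interval 75.7 to 84.6%), and in 70.8% of the TSS-centred peaks. In 235 of these 322 members the midpoint lay beyond the translation start. Among genes with 1 annotated TSS, the translation start was inside the peak in 84.7% of members and 81.1% of TSS-centred peaks. The other midpoints are few enough to name, although they were chosen after their values had been seen. Those of 1700106J16Rik and Npb, which encodes the neuropeptide B precursor, were in a 3′ UTR of transcripts that span only 1219 and 529 bp. The midpoint at Nags was in an exon of a non-coding transcript of that gene. At Gm10462, Gm17680, Gm4392 and Gm3699 it was past the annotated end of the gene, as these gene models are only 371, 408, 339 and 200 bp long.

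Genes with these peaks had a longer exon 1 than genes with TSS-centred peaks. Its median length was 484 bp (interval 389 to 542 bp) in the 338 members, 219 bp (interval 207 to 233 bp) at TSS-centred peaks and 162 bp (interval 129 to 197 bp) at upstream-centred peaks. Exon lengths were not used to select the members, although the rule favours genes with few annotated TSSs, because the nearest TSS counts. Indeed 202 members (59.8%) had 1 annotated TSS, compared with 31.4% of TSS-centred peaks. When only genes with 1 TSS were compared, the median exon 1 was 612 bp at 202 members and 306 bp at 434 TSS-centred peaks. With 1 TSS per gene, the one shared by most transcripts, 504 peaks were centred inside the gene and the medians were 402 and 255 bp. Genes whose transcript at the nearest TSS had 1 exon are called single-exon genes here, although other transcripts of the gene can have more. They were 59 of the members (17.5%, interval 13.6 to 21.9%) and 84 of the TSS-centred peaks (6.08%, interval 4.88 to 7.48%). Among genes with 1 TSS, single-exon genes were 28.7% of the members and 18.0% of the TSS-centred peaks. Leaving single-exon genes out, the median exon 1 was 343 bp (interval 296 to 441 bp) in 279 members and 206 bp (interval 192 to 218 bp) in 1297 TSS-centred peaks.

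**Figure D2:**
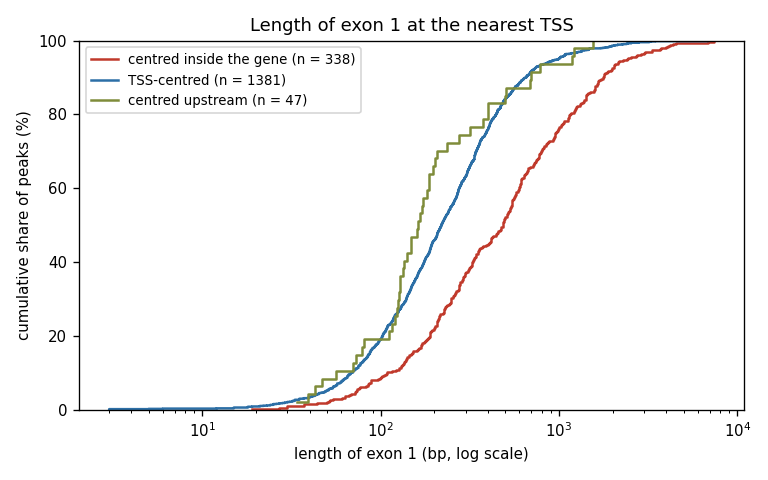
The cumulative share of peaks (%) is plotted against the length of exon 1 at the nearest TSS (bp, log scale) for peaks centred inside the gene, TSS-centred peaks and peaks centred upstream. The curve for the 338 members lies to the right, with a median of 484 bp against 219 bp for TSS-centred peaks.

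Members with the midpoint in a coding exon and those with the midpoint in an intron had different gene structures. At the 149 midpoints in coding exons, exon 1 had a median length of 923 bp (interval 768 to 1056 bp) and the transcript spanned a median of 4265 bp. At the 148 midpoints in introns, exon 1 measured 231.5 bp (interval 208 to 266 bp) and the transcript spanned 31227.5 bp. The end of exon 1 was inside the peak in 262 of the 279 members with several exons (93.9%, interval 90.4 to 96.4%). In 106 of these 279, exon 1 reached beyond the midpoint. Among the coding group are Zic5, a zinc finger transcription factor gene with an exon 1 of 1786 bp, and Arid1b, a subunit gene of the BAF chromatin remodelling complex with one of 1419 bp. The intron group includes Ephb2, an ephrin receptor gene with an exon 1 of 74 bp, and Chd5, a chromatin remodeller gene with one of 144 bp. As the midpoints were all at least 350 bp downstream of the TSS, the annotation at the midpoint depends on the length of exon 1 by construction.

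The CpG-rich sequence under these peaks is described next, although its position is largely fixed by the rule, which used the CpG o/e at a midpoint downstream of the TSS. CpG islands were called from the reference sequence (at least 200 bp, GC of at least 50% and CpG o/e of at least 0.6), and the island was one that overlapped the peak, which every member had. The centre of the island was at a median of 340.5 bp downstream of the TSS (interval 314 to 372 bp) in the members, at 92 bp (interval 82 to 102 bp) in TSS-centred peaks and at -309 bp in upstream-centred peaks. The island included the TSS in 261 members (77.2%) and in 95.9% of TSS-centred peaks. Over the 1000 bp downstream of the TSS, members held a median of 74 CpGs, and over the 1000 bp upstream 25. At TSS-centred peaks these medians were 57 and 41, and at upstream-centred peaks 36 and 74. The CpG o/e was higher downstream than upstream of the TSS in 317 members (93.8%, interval 90.7 to 96.1%), in 69.0% of TSS-centred peaks and in 17.0% of upstream-centred peaks. The limit on CpG o/e applied downstream of the TSS in members, near the TSS in TSS-centred peaks and upstream of it in upstream-centred peaks, so these differences in CpG content between the groups follow in part from their selection and support nothing by themselves. At the TSS itself, the CpG o/e over 1000 bp had a median of 0.717 in members and 0.762 in TSS-centred peaks.

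**Figure D3:**
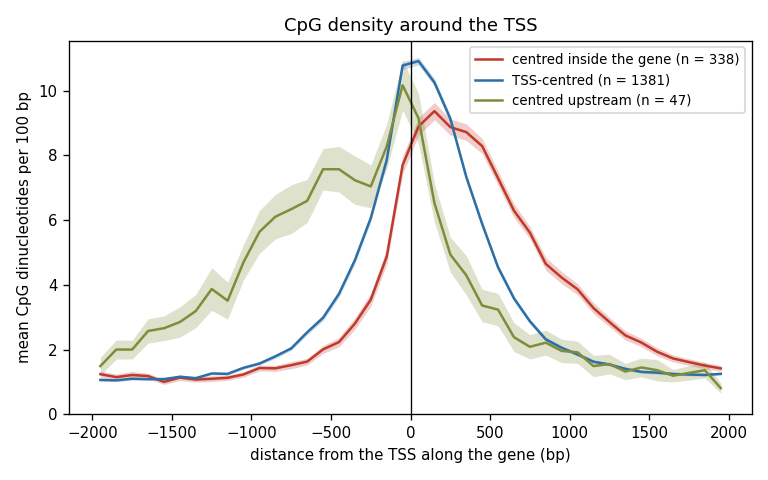
Mean number of CpG dinucleotides per 100 bp against the distance from the TSS along the gene (bp), with shaded bands of ± 1 standard error over peaks, for peaks centred inside the gene, TSS-centred and centred upstream. In the 338 members the density was 8.29 at 450 bp and 4.22 at 950 bp downstream, and in TSS-centred peaks 5.88 and 2.05.

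The profile of CpG density gives the same values by distance. In the members the density was highest at 150 bp downstream, with 9.37 CpGs per 100 bp, and fell to 2.23 at 450 bp upstream. TSS-centred peaks had 3.72 CpGs per 100 bp at 450 bp upstream and their highest value of 10.9 at 50 bp downstream. Across all 1766 eligible peaks, the position of the midpoint and the position of the island centre had a Spearman correlation of 0.622, and within the 338 members one of 0.382. The island was assigned by its overlap with the peak and the peaks were selected on CpG o/e at the midpoint, which ties these positions by construction, and peaks of 1 library share their depth and base composition. Members centred below 500 bp had island centres at a median of 291 bp, those from 500 to below 700 bp at 390 bp and those from 700 bp at 582 bp. The median exon 1 was also longer in the more distant groups, with 360, 542 and 990 bp, the last with an interval of 329 to 1321 bp. Single-exon genes were 14.7, 15.5 and 31.4% of these groups. Midpoint position and length of exon 1 had a Spearman correlation of only 0.172 in the members and 0.169 in TSS-centred peaks. Single-exon members had island centres at 446 bp, and members with several exons at 330 bp (interval 299 to 356 bp).

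The score in the list equals 10 times −log10 of the p-value that MACS gave each peak against the control. It had a median of 240.28 in the members (interval 218.49 to 264.34) and 219.26 in TSS-centred peaks (interval 212.65 to 227.45), and these intervals overlap. Position inside the gene and score had a Spearman correlation of 0.0578 over the 338 members. Of the 1032 eligible peaks with a score of at least 200, 208 were members (20.2%), and of the 734 below that 130 (17.7%). Among the 500 highest-scoring peaks of the whole list, 224 were eligible and 56 of these were members (25.0%), beside 19.1% of all eligible peaks. Among the 100 highest, 13 of 44 eligible peaks were members (29.5%), and among the 10 highest 2 of 5. These shares were not tested. Single-exon members had a higher median score of 310.97 (interval 261.31 to 407.79) than members with several exons, with 222.28 (interval 204.78 to 251.32). The same was seen in TSS-centred peaks, where single-exon genes had a median of 317.38 and genes with several exons 216.9. Of the single-exon members, 35.6% had more than 10% of the 36-mers in the peak repeated in mm9, as had 9.68% of those with several exons. In TSS-centred peaks these shares were 58.3% and 5.55%. Whether repeated sequence bears on these scores was not tested.

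**Figure D4:**
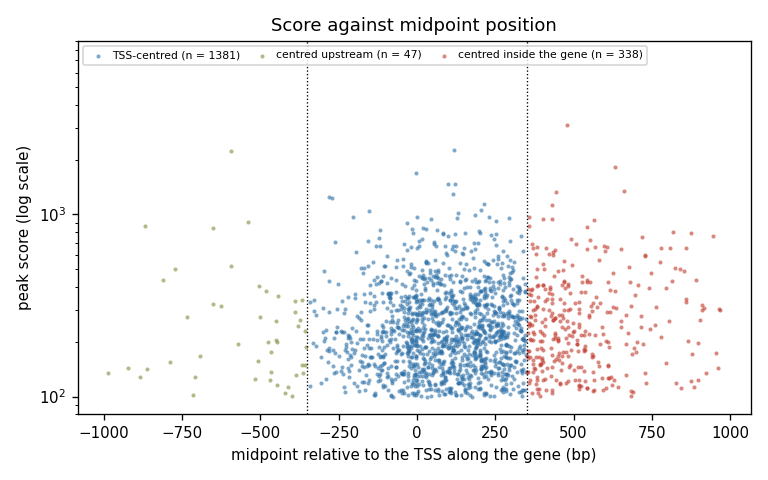
The peak score (log scale) is plotted against the position of the midpoint relative to the TSS along the gene (bp) for all 1766 eligible peaks, with dotted lines at 350 bp on either side. The 338 members to the right of the line at 350 bp span scores from 100.25 to 3100, and the TSS-centred peaks span 100.01 to 2246.72.

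The highest-scoring member, at Gm10462, spanned chr11:32625323-32627312 and was also the highest of the whole list with a score of 3100. It was followed by Gm17646 with 1830.84, 4921510H08Rik with 1337.71, Nags with 1322.48 and Cdc34-ps with 1132.34. Then came Hsf5 with 968.06, Gm6816 with 941, Cmpk2 with 938.66, Rrs1 with 926.33 and Krt2 with 868.1. The peak at Hsf5 spanned chr11:87430190-87431858 and that at Cmpk2 chr12:27153779-27155162, each centred in the coding part of an exon 1 of 742 and 823 bp. Rrs1 (chr1:9535227-9536879) encodes a regulator of ribosome biogenesis and Krt2 (chr15:101647658-101648827) an epidermal keratin. The peak at Nags (chr11:102006380-102009868) was 3489 bp wide, and its island was centred at -650 bp, whereas its midpoint was at 444 bp. Both positions are relative to the start of a non-coding transcript of Nags at 102007680. The annotated gene begins upstream of this, at 102006827, and the island includes that gene start. In 7 of these 10 the midpoint was in a coding exon, and 4 were single-exon genes. Several of the strongest peaks lay in repeated sequence, to which reads from other copies can be assigned, as the best alignment was kept for reads with several. At Gm10462, 68.7% of the 36-mers in the peak occurred more than once in mm9, at Gm17646 78.9%, at Cdc34-ps 18.6%, at Rrs1 15.8% and at Gm6816 15.4%. The other 5 of the 10 had none. Over all members, 48 (14.2%, interval 10.7 to 18.4%) had more than 10% repeated 36-mers, compared with 8.76% of TSS-centred peaks, and 21 of the 48 were single-exon genes. Without such peaks, exon 1 had a median length of 461.5 bp in 290 members and 210.5 bp in 1260 TSS-centred peaks. Single-exon genes were then 13.1% of the members and 2.78% of TSS-centred peaks.

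At the 5 genes with the most distant midpoints, the peak was centred nearly 1 kb from the TSS, close to the limit of 1000 bp set by the rule. At Zic5, which encodes a transcription factor of neural development, the midpoint was 968 bp from the TSS and the peak of 2776 bp (chr14:122862544-122865319) reached from -420 to 2355 bp. Its island was centred even further into the gene, at 1410 bp, and the midpoint was in the coding part of exon 1. At Actl7b, a single-exon gene for an actin-like protein of the testis, the midpoint was at 946 bp and the score was 761.99. The peaks at Catsperg2, which encodes a subunit of the sperm cation channel, at Adam1b, a gene for a sperm metalloprotease-family protein, and at 2310014L17Rik did not include the TSS. Their midpoints were at 963, 961 and 955 bp, and their upstream edges at 3, 300 and 280 bp. At Adam1b 67.5% of the 36-mers were repeated.

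The 28 peaks that began downstream of the TSS had a median midpoint position of 769 bp and a median width of 1190.5 bp (interval 1093 to 1323 bp). Their midpoints were in coding exons in 18 cases and in introns in 8. The strongest of them, named after their values had been seen, were at Qpct with a score of 632.44, Ces5a with 564.52, Fgfbp3 with 551.21, Nudt11 with 498.96 and Zfp648 with 488.28. Qpct encodes glutaminyl cyclase, which modifies the N terminus of peptide hormones. At Ces5a and Nudt11 87.0% and 78.8% of the 36-mers were repeated. These 28 peaks had a median score of 303.855 (interval 198.52 to 381.84), which overlaps that of all members.

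No gap in position separated the members from the peaks next to them. The 3 peaks just inside the threshold were at B4galt1, a galactosyltransferase gene, at 350 bp with a score of 167.6, Vangl1, a planar cell polarity gene, at 353 bp with 136.06, and Slit3, an axon guidance ligand gene, at 354 bp with 222.28. Just outside were Rprm, a cell cycle inhibitor gene, at 349 bp with 266.15, 2210018M11Rik at 348 bp with 169.36 and Tktl2, a transketolase-like gene, at 347 bp with 136.61. There were 14 members in the 10 bp from the threshold inwards and 14 eligible peaks in the 10 bp before it.

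Genes of 12 functional lists, made from gene symbols, were counted to describe what the 338 genes do. In all 70 members were in a list and 268 in none. The share of all eligible peaks in any list is not given here, so this count does not set the members apart. Among developmental transcription factors, 5 of 19 eligible peaks (26.3%, interval 9.15 to 51.2%) were members, all with the midpoint in a coding exon. These were Vsx1, a homeobox gene of the retina, with a score of 459.38, Zic5 with 298.1, Olig1, a basic helix-loop-helix gene of the oligodendrocyte lineage, with 233.88, its relative Olig3 with 113.36 and Hoxd12 with 127.6. In all 5, exon 1 was longer than the median of the members, from 726 bp at Hoxd12 to 2171 bp at Olig1. This follows in part from their midpoints, which were in coding exons at least 350 bp from the TSS. Of the signalling genes of the Wnt, FGF, BMP, Hedgehog and Notch pathways, 7 of 23 (30.4%, interval 13.2 to 52.9%) were members. At Fgfbp3, which encodes an FGF-binding protein, the peak scored 551.21 and was centred 776 bp into the gene in exon 2, after an exon 1 of only 44 bp. Sfrp5, a secreted Wnt antagonist gene, had its midpoint at 425 bp in exon 1 with a score of 401.7. At Wnt9a, a Wnt ligand gene, the peak was the widest of all members with 4437 bp, from -1359 to 3077 bp, and was centred 859 bp into the gene in intron 1.

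Genes that act in the nervous system or in membrane transport gave shares from 18.8 to 35.7% with wide intervals. Of 14 eligible peaks at axon guidance genes, 5 (35.7%, interval 12.8 to 64.9%) were members. Ephb2 scored 499.3 with the midpoint at 383 bp, Sema7a, a semaphorin gene, 360.52 at 365 bp, and Plxna2, a semaphorin receptor gene, 302.35 at 378 bp. The ion channel genes gave 8 of 28 (28.6%, interval 13.2 to 48.7%). Kcnk4 had the highest score of these with 852.61 and the midpoint at 542 bp in intron 1, where its CpG o/e over the 1000 bp downstream was 0.694 and over the 1000 bp upstream 0.145. Kcna3, a single-exon gene for a voltage-gated potassium channel, scored 423.23, and Kcns2, which encodes a modulatory potassium channel subunit, 308.41. At neurotransmitter receptor genes 4 of 18 (22.2%, interval 6.41 to 47.6%) were members, with Gabra5, a GABA-A receptor subunit gene, at 619.32, Sstr4, a somatostatin receptor gene, at 205.14 and Htr5a, a serotonin receptor gene, at 123.02. Solute carriers gave 9 of 48 (18.8%, interval 8.95 to 32.6%), led by Slc35f1 with 686.86, Slc22a3, an organic cation transporter gene, with 297.29 and Slc7a14 with 241.82.

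Among chromatin regulators, 4 of 16 (25.0%, interval 7.27 to 52.4%) were members, namely Chd5 with a score of 653.29, Kat2b, a histone acetyltransferase gene, with 330.63, Arid1b with 328.1 and Kdm2a, a histone demethylase gene, with 138.25. At Chd5 the island was centred at 8 bp, whereas the midpoint of the peak was at 412 bp. The ubiquitin ligases and conjugating enzymes had 15 of 41 (36.6%, interval 22.1 to 53.1%). Kbtbd5, a BTB-kelch gene, scored 651.48 with the midpoint 778 bp into an exon 1 of 1321 bp, Rnf187, a RING finger gene, scored 375.27 and Fbxl14, a single-exon F-box gene, 353.09. All eligible genes of that list had a median midpoint position of 292 bp and a median exon 1 of 399 bp, compared with 142.5 bp and 245.5 bp over all 1766 eligible peaks. Molecular motor genes gave 3 of 15 (20%, interval 4.33 to 48.1%), among them the kinesin genes Kif2b with 210.93 and Kif3c with 147.23. At extracellular matrix and integrin genes 5 of 33 (15.2%, interval 5.11 to 31.9%) were members, led by Loxl1, an enzyme gene of elastic fibre crosslinking, with 432.05, Adamts8, a metalloprotease gene, with 372.02 and Itga11, a collagen receptor gene, with 242.26. Of small GTPase regulators 5 of 40 (12.5%, interval 4.19 to 26.8%) were members, and in all 5 the midpoint was in an intron. Arhgap39, a GTPase activating protein gene, scored 375.81, Dennd4b, a Rab exchange factor gene, 290.13 and Fgd5, a Cdc42 exchange factor gene, 219.1.

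The list of meiosis and germline genes, 70 genes found by symbol, had no member, although genes outside this list with a role in the testis or sperm, such as Actl7b and Catsperg2, were members. Of 21 eligible peaks at the listed genes 0 were centred inside the gene, which allows a share of up to 16.1%. Their midpoints were between -257 and 335 bp with a median of 68 bp, and their exon 1 had a median length of 104 bp. Mov10l1, a piRNA pathway gene with the highest score of these (1690.62), was centred at -2 bp with an exon 1 of 68 bp. The most distant midpoint was at Tdrd6, a Tudor domain gene of germ granules, at 335 bp in an exon 1 of 1711 bp, just short of the threshold. Both were chosen after their values had been seen. No list was tested, and the shares are counts beside the 19.1% of all eligible peaks.

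**Figure D5:**
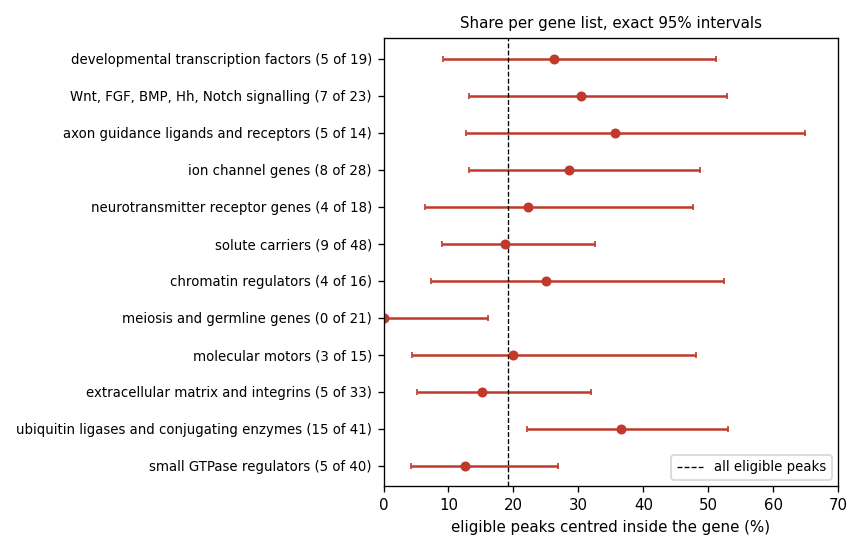
For each of the 12 gene lists, the point is the share of eligible peaks centred inside the gene (%), the bar its exact 95% interval and the dashed line the share over all 1766 eligible peaks. The shares run from 0 of 21 for meiosis and germline genes to 15 of 41 for ubiquitin ligases and conjugating enzymes.

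The GC box was less frequent at the midpoint of the members than at their TSS, whereas CGCG was present at nearly the same share of both. In windows of 300 bp on both strands, the GC box GGGCGG, bound by Sp and Klf factors, was present at 43.8% of the member midpoints (interval 38.4 to 49.3%). It was present at 69.2% of the midpoints of TSS-centred peaks (interval 66.7 to 71.7%), at 65.7% of the TSSs of the members themselves (interval 60.4 to 70.7%) and at 45.6% of all 22367 protein-coding genes at their TSS. The sequence CGCG was present at 76.6% of member midpoints, at 77.8% of their TSSs, at 89.8% of TSS-centred midpoints and at 51.5% of all protein-coding TSSs. The E-box CACGTG was present in 11 member windows (3.25%, interval 1.64 to 5.75%), in 7.40% of windows at their TSSs, in 6.44% of TSS-centred and in 7.18% of all TSS windows. The TATA sequence TATAAA was found in 2 member windows (0.592%), in 3.55% of windows at their TSSs, in 1.81% of TSS-centred windows and in 10.8% of all TSS windows. For GCGCATGC, a form of the NRF1 motif, these shares were 1.78, 2.37, 2.68 and 3.07% in the same order. They were 9.76, 16.3, 13.9 and 18.5% for the ETS motif TTCCGG, and 1.48, 2.96, 2.68 and 3.91% for CGCCATNTT, a form of the YY1 motif. The CRE sequence TGACGTCA was in 0 of 338 member windows, which allows a share of up to 1.09%, in 2.37% of windows at their TSSs, in 0.797% of TSS-centred windows and in 2.23% of all TSS windows. For the rarer motifs the shares of TSS-centred windows were thus also below those of all TSSs. For CACGTG and GCGCATGC, however, the TSS-centred intervals (5.21 to 7.87% and 1.89 to 3.67%) included the share of all TSSs. None of these motifs contains another one of the set. A match is only a match of letters, and these windows differ in base composition.

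Members lay on every chromosome of the list and on both strands, with 165 on plus and 173 on minus. Chromosome 11 held the most members with 40, but it also held the most eligible peaks with 170. Its share of 23.5% compares with 19.1% of all eligible peaks, and some chromosomes had a higher share, such as chromosome 17 with 27.1%. The sex chromosomes held 4 members, named here after their values had been seen. On X these were Nudt11 with a score of 498.96, Atp2b3, a plasma membrane calcium pump gene, with 493.75 and Gm8334 with 313.26. On Y it was Zfy1, a zinc finger gene, with 325.81. At Atp2b3 none of the 36-mers was repeated, whereas 100% were at Zfy1, 90.0% at Gm8334 and 78.8% at Nudt11. In 22 members the midpoint also lay in another annotated gene, so that the peak may belong to either.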

How the data were processed

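Of 6 samples, 1 was analysed here, as the peak list from the V5-Dppa2 ChIP. Per the submitters' processing notes and the methods of the study, the authors aligned reads to mm9 with Bowtie 0.12.7, keeping the best alignment of reads with several, removed duplicates (the notes name Picard 1.81) and called peaks with MACS 1.4.2 against the control. The score deposited by the authors equals 10 times −log10 of the p-value that MACS gave, and the lowest score corresponds to a p-value of 9.98e-11. The list holds peaks near TSSs, without summits or read counts, so midpoints were used and depth is unknown. Peaks elsewhere were not analysed here.

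Midpoints were set against all transcripts of GENCODE M1 on NCBIM37 (mm9). CpG islands, motifs and repeated 36-mers were taken from that genome. Medians have exact binomial order-statistic intervals and shares exact Clopper-Pearson intervals (95%). With 1 library no test was made. Lists were made from symbol patterns. Named genes were the 10 highest-scoring members, the 5 most distant, up to 3 highest-scoring members per list and 3 peaks on either side of the threshold, with exceptions stated, and 1 gene that this rule names is not reported here. The members and lists were chosen with earlier results of these data known. Calculations ran in numpy 2.4.6, numba 0.67.0 and scipy 1.17.1 under Python 3.11.15, with plots by matplotlib 3.10.9, and the steps were tested on simulated data.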

Additional observations from a re-analysis of the deposited data

How the results depend on the processing

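With a score of at least 200 (a p-value of 1e-20), 208 peaks were centred inside the gene, with a median score of 329.485. With the distance set at 250 bp there were 573 peaks, with a median position of 383 bp, the TSS inside 95.1% of peaks and the island centre at 273 bp. At 500 bp there were 161, with a median position of 612 bp, the TSS inside 83.2%, midpoints in coding exons in 50.3% and in UTRs in 7.45%, a CpG o/e at the TSS of 0.667, the island centre at 450 bp and an exon 1 of 564 bp. With 1 TSS per gene, 16.7% of midpoints were in UTRs. Restriction to genes with 1 TSS, added after the data had been seen, gave an island centre at 387 bp and an exon 1 of 612 bp, and restriction to genes with several exons, also added, an exon 1 of 343 bp. Other values stayed within the interval of the reported value, and other counts within 1.5 times it. These alternatives were a 500 bp CpG window, no CpG limit, TSSs of protein-coding transcripts, merged peaks, stricter islands and repeated sequence left out. No paired analysis was possible because each condition has 1 library and no test was made. The unknown depth limits what a missing peak can mean, and peaks just under the authors' threshold are not in the list.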
